A study of Sus scrofa with 12 samples.

Results

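The calpains and cathepsins are the proteases most often studied in the conversion of muscle to meat. Of 10 listed genes of these families, calpastatin included, 8 were found among the 25880 genes counted: the calpain catalytic subunits CAPN1, CAPN2 and CAPN3, the calpain small subunit CAPNS1, and the cathepsins CTSB, CTSD, CTSH and CTSL. Genes were found by matching the Ensembl identifiers of the count table to pig gene names. Calpastatin, CAST, carried no identifier in the name table and CTSK was not matched to the count table, so both were not analysed here and no calpain to calpastatin ratio could be given.

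RNA was sequenced from the Semimembranosus (SM) muscle, a ham muscle, of 12 Italian Large White (ILW) pigs with extreme intramuscular fat (IMF) content, 6 in the high IMF group (pigs 1 to 6) and 6 in the low IMF group (pigs 7 to 12). All pigs shared housing and diet, weighed between 150 and 160 kg and were 229 to 249 days old, and each group held 3 gilts and 3 barrows by its labels. The paper states that they were slaughtered on different days. Slaughter day and RNA integrity of each pig are not given in the sources used here. Total counts per pig ranged from 131048805 to 178013997. In every pig they exceeded the number of input reads that the paper lists, and the reason is not given in the sources used here. Of 8 muscle fibre markers 3 were matched (ACTA1, CKM and DES), and they summed to between 24853 and 50868 CPM (counts scaled to a common library total, after TMM normalization here and for all CPM below) in every pig, far above the sums of the adipocyte markers (22.6 to 137.5 CPM) and macrophage markers (80.6 to 186.9 CPM), as the tissue label has it. In whole muscle, fewer cells of a type and less RNA per cell cannot be told apart.

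The labels of single pigs carried a limit. Counts on the Y chromosome genes EIF1AY and KDM5D were those of the other sex in 6 of the 12 pigs, 2 of the high IMF group (pigs 3 and 5) and 4 of the low IMF group (pigs 7, 8, 9 and 10). Whether these pigs had been exchanged between groups was not tested. Results are therefore also given without them, from 4 high IMF and 2 low IMF pigs. A match does not verify the other 6 pigs, since an exchange between pigs of the same sex leaves these counts unchanged. With 6 of the 12 pigs at odds, labels and counts agreed no more often than unrelated labels would.

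As background, calpains are calcium-dependent cysteine proteases of the cytosol. The products of CAPN1 (µ-calpain) and CAPN2 (m-calpain) each pair with the small subunit encoded by CAPNS1, and calpastatin is their specific inhibitor. CAPN3 encodes p94, a calpain found mainly in skeletal muscle, where it binds titin. After slaughter, µ-calpain in particular cuts cytoskeletal proteins such as desmin and titin, and a high calpastatin activity is known to go with tough meat. Cathepsins are lysosomal proteases. Those encoded by CTSB, CTSH and CTSL are cysteine proteases of the papain family, which cystatins inhibit, and that encoded by CTSD is an aspartic protease. Cathepsin activity is of interest in dry-cured ham, where proteolysis goes on through curing.

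The codon of the catalytic cysteine is the feature that 6 of the 8 genes have in common; the products of CAPNS1 and CTSD have no such residue. It is shown to show the calpain and the papain-like sequences of the group side by side, and CTSV, which is not one of the listed genes, is added because its reads bear on those of CTSL. The stretches are of 30 coding bases, read from the pig genome Sscrofa11.1 with RefSeq annotation release 106 and written 5′ to 3′ on the strand of the gene, with the cysteine codon in capitals. In the calpains the codon lay in coding exon 3, of 21 in CAPN1 and CAPN2 and of 24 in CAPN3:
CAPN1 (chr2:7021722-7021751, minus strand): gacTGCtggctcctggctgccatcgcctcc
CAPN2 (chr10:19790459-19790488, plus strand): gacTGCtggctgctggcagccatcgcctcc
CAPN3 (chr1:128981276-128981305, minus strand): gacTGCtggtttctggcagccatcgcttgc

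In the cathepsins it lay in coding exon 3 of 9 in CTSB, 6 of 12 in CTSH and 4 of 7 in both CTSL and CTSV, and the latter pair shared the codon TGT:
CTSB (chr14:15021584-15021613, minus strand): agagaccagggctcctgtggctccTGCtgg
CTSH (chr7:48096056-48096085, minus strand): agctgcggcagtTGCtggaccttctctacc
CTSL (chr10:27672856-27672885, minus strand): cactgtggttctTGTtgggcttttagtgcc
CTSV (chr10:25204524-25204553, plus strand): cagtgtggttctTGTtgggcttttagtgcc

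Over the aligned coding sequence, CTSL and CTSV shared 857 of 997 bases (86.0%), with a longest identical run of 46 bases. RefSeq lists CTSL among the synonyms of CTSV, so which gene of the pair encodes pig cathepsin L is not settled here. CTSL and CTSV mean the genes that carry these names. How the counting treated reads with several alignments is not given in the sources used here, so the split of reads between the pair is also uncertain. The 3 calpains were less alike: 69.8% of aligned coding bases were identical between CAPN1 and CAPN2, 66.2% between CAPN1 and CAPN3 and 65.5% between CAPN2 and CAPN3, with identical runs of at most 23 bases.

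CAPN3 (ENSSSCG00000004728, chr1:128960117-129013508) was by far the most abundant of the 8 mRNAs. Per kb of RefSeq exons, a scale that adjusts roughly for gene length, its level was 140.0 ± 20.2 CPM per kb (SD, n = 12), with between 49572 and 98182 counts per pig. It exceeded CTSB (36.8 ± 4.67 CPM per kb, SD, n = 12), the next of the 8, by 3.80-fold on average and in 12 of 12 pigs. CTSD followed at 28.5 ± 5.91 CPM per kb (SD, n = 12), below CTSB in 12 of 12 pigs. The length used joins the exons of all RefSeq transcripts of a gene and is not that of the transcripts present. An error in this length is the same in every pig, so close ranks are uncertain even where most pigs share them.

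The calpain subunits CAPN2 (18.1 ± 2.44 CPM per kb, SD, n = 12) and CAPNS1 (17.4 ± 2.31 CPM per kb, SD, n = 12) did not differ beyond their spread, since CAPN2 was the higher in 7 of 12 pigs. CAPN1 had 12.5 ± 1.93 CPM per kb (SD, n = 12) and lay below CAPNS1 in 11 of 12 pigs. CTSH, an aminopeptidase among the cathepsins, had 10.2 ± 2.18 CPM per kb (SD, n = 12) and lay below CAPN1 in 11 of 12 pigs. The gene named CTSL came last, at a mean of 5.39 CPM per kb that 1 pig dominated (range 1.26 to 32.1 CPM per kb). It lay below CTSH in 11 of 12 pigs.

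Among the relatives that are not listed, CTSV (72.3 ± 17.3 CPM per kb, SD, n = 12) and CTSF (70.6 ± 33.5 CPM per kb, SD, n = 12) stood between CAPN3 and CTSB in mean level, as did the secreted cystatin CST3 (54.3 ± 11.4 CPM per kb, SD, n = 12). Of 11 other calpain genes with a level, CAPN7 was the highest at 8.51 ± 0.996 CPM per kb (SD, n = 12). CAPN8, CAPN11, CAPN13 and CAPN14 had at most 16 counts in any pig, and CAPN9 and CAPN12 had 0 counts in all.

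**Figure D1:**
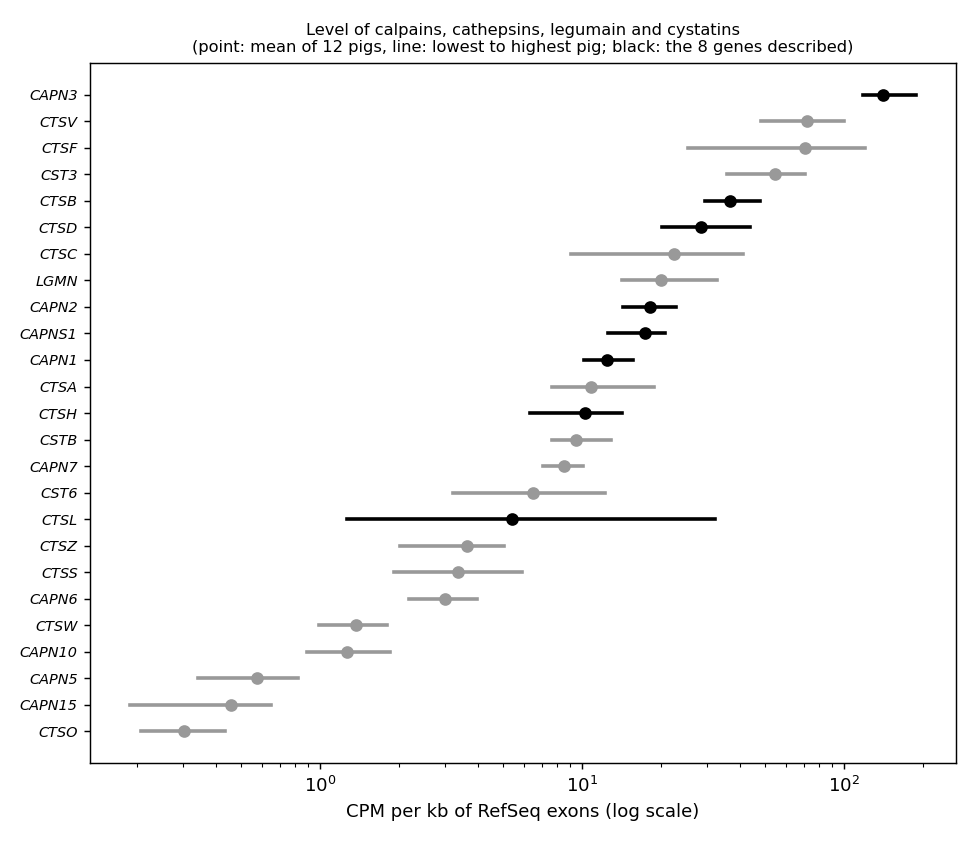
Level of the tested calpain, cathepsin, legumain and cystatin genes in CPM per kb of RefSeq exons (horizontal axis, log scale), as the mean of 12 pigs (point) and the range from the lowest to the highest pig (line), with the 8 genes described in black and their relatives in grey. CAPN3 stands highest at 140.0 CPM per kb, and the line of CTSL, from 1.26 to 32.1 CPM per kb, is the longest of the black lines.

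High and low IMF pigs were then compared. A gene was called where its adjusted p did not exceed 0.05 and its log2FC, in absolute value, reached 0.58. By the quasi-likelihood test of edgeR, this held for 0 of the 8 genes, beside 0 of 14262 genes tested (0.0%). DESeq2's Wald test, at the same thresholds, called 0 of the 8 and 58 of all genes (0.407%), and limma-voom also called 0 of the 8. The log2FC, low over high IMF, was positive for 7 genes and negative for CTSL, with a median of 0.20 beside -0.0083 over all genes tested, of which 48.4% were positive. Before adjustment, p was at or under 0.05 in edgeR's test for 3 of the 8 genes, beside 1486 genes in all (10.4%): CAPN2 and CAPNS1 with the low IMF group higher (5.38% of all genes) and CTSL with the high IMF group higher (5.04% of all genes). The ranges of both groups overlapped for all 8 genes. Over all genes tested, 0.659% had groups that did not overlap.

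CAPN2 (ENSSSCG00000029411, chr10:19758824-19820241), the m-calpain catalytic subunit, had 50.8, 49.9, 45.04, 57.8, 49.9 and 54.4 CPM in high IMF pigs 1 to 6. In low IMF pigs 7 to 12 it had 71.6, 58.6, 66.4, 64.4, 56.3 and 56.8 CPM. All low IMF pigs but 11 and 12 lay above the highest high IMF pig, pig 4, and this pig alone made the groups overlap. The means were 51.3 ± 4.37 CPM (SD, n = 6) in the high and 62.3 ± 6.11 CPM (SD, n = 6) in the low IMF pigs, which gave a log2FC of 0.28 ± 0.09 (SE) with a 95% interval from 0.09 to 0.48. The unadjusted p was 0.00803 and the adjusted p 0.420 (edgeR's quasi-likelihood test), so the difference did not pass over all genes.

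CAPNS1 (ENSSSCG00000030149, chr6:45511410-45518610), the small subunit that m- and µ-calpain share, likewise had a higher mean in the low IMF group, with another order of pigs within each group. It had 24.2, 17.1, 20.2, 23.2, 22.5 and 21.4 CPM in high IMF pigs 1 to 6. Low IMF pigs 7 to 12 had 26.5, 23.5, 23.9, 28.2, 24.3 and 27.8 CPM. High IMF pig 1 lay above low IMF pigs 8 and 9, and the other 5 high IMF pigs lay below the whole low IMF group. The group means were 21.4 ± 2.54 and 25.7 ± 2.07 CPM (SD, n = 6 each, high then low), and the log2FC was 0.26 ± 0.10 (SE; 95% interval 0.05 to 0.47), with an unadjusted p of 0.0183 and an adjusted p = 0.432 (edgeR's quasi-likelihood test).

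Exact two-sided permutation tests of log2 CPM over all divisions of the pigs into 6 and 6 gave an unadjusted p of 0.00649 for both CAPN2 and CAPNS1, the lowest among the 8 genes. Each pig left out in turn, the log2FC stayed between 0.24 and 0.32 for CAPN2 and between 0.20 and 0.30 for CAPNS1. Without the 6 pigs whose Y chromosome counts did not match their labels, it was 0.10 for CAPN2 and 0.29 for CAPNS1.

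CAPN1 (ENSSSCG00000012999, chr2:6997513-7024410), the µ-calpain catalytic subunit, had 59.7, 68.6, 50.2, 49.1, 51.7 and 52.6 CPM in high IMF pigs 1 to 6. In low IMF pigs 7 to 12 it had 75.2, 71.3, 68.1, 63.3, 50.1 and 60.1 CPM. Low IMF pig 11 was as low as most high IMF pigs, and high IMF pig 2 was among the highest, so that the groups overlapped widely. The log2FC was 0.23 ± 0.12 (SE), with a 95% interval from -0.02 to 0.48 and an adjusted p = 0.513 (edgeR's quasi-likelihood test). Its sign turned without the 6 pigs whose Y chromosome counts did not match, to -0.05.

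CAPN3 had 451.3, 517.9, 461.4, 421.1, 551.1 and 419.9 CPM in high IMF pigs 1 to 6, and 457.0, 654.2, 455.0, 516.3, 529.8 and 410.6 CPM in low IMF pigs 7 to 12. Low IMF pigs 8 and 12 gave the highest and the lowest value of all pigs. The log2FC was 0.10 ± 0.12 (SE; 95% interval -0.16 to 0.36), with an adjusted p = 0.812 (edgeR's quasi-likelihood test). The interval did not reach a log2FC of 0.58 in either direction. The log2FC was 0.02 without pig 8, 0.15 without pig 5, 0.16 without pig 12 and 0.06 without the 6 pigs of mismatched Y chromosome counts.

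**Figure D2:**
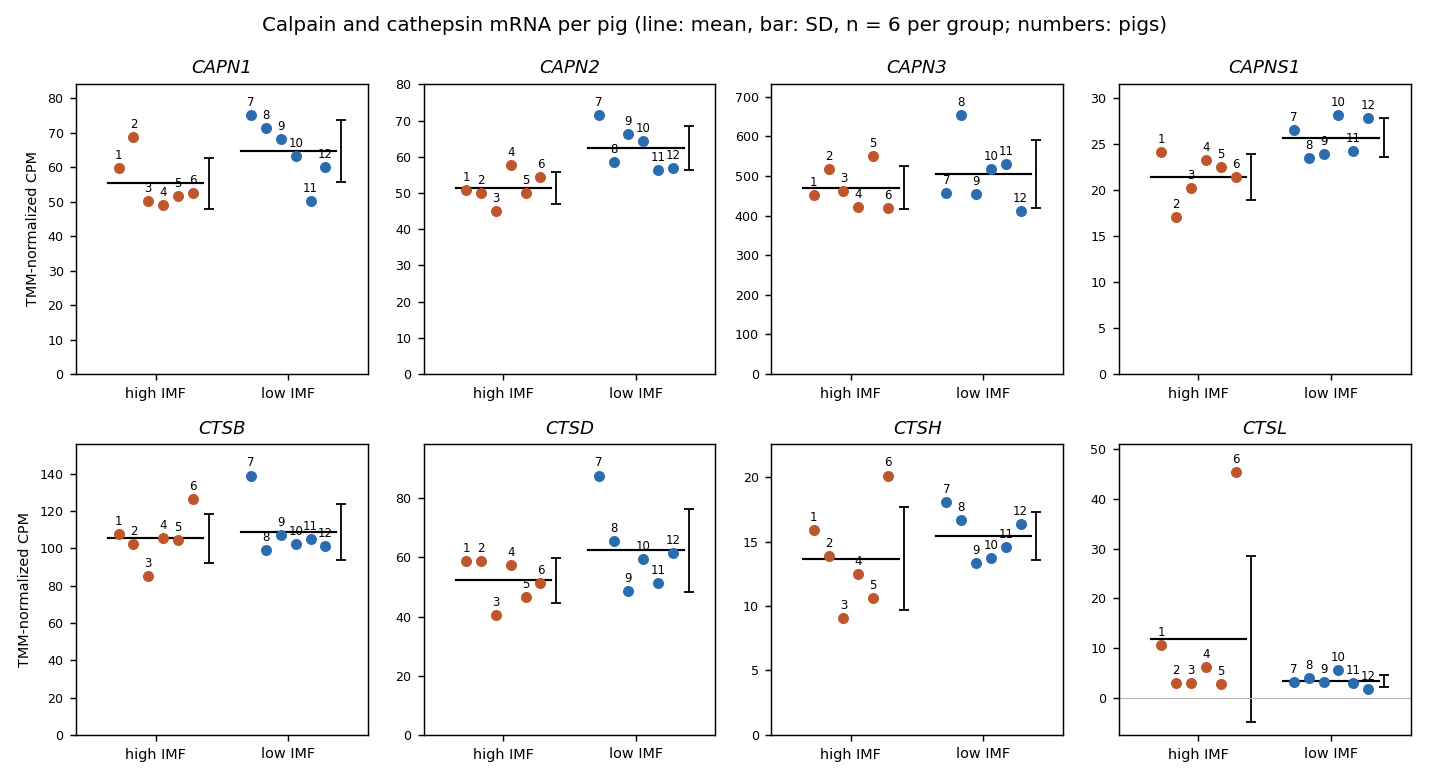
TMM-normalized CPM (vertical axes, linear, 1 scale per gene) of the 8 genes in high IMF pigs (orange, pigs 1 to 6) and low IMF pigs (blue, pigs 7 to 12), with the group mean (line) and SD (bar, n = 6). The groups overlap in every panel, pig 4 alone reaches into the low IMF range of CAPN2, and pig 6 stands apart for CTSL at 45.5 CPM.

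CTSB (ENSSSCG00000023666, chr14:15014139-15035081), an abundant lysosomal cysteine protease, differed least between the groups. It ranged from 85.3 to 126.6 CPM (median 104.9) in the high and from 98.9 to 139.0 CPM (median 103.6) in the low IMF group. After TMM normalization pig 7 held the highest value of all pigs, while the other 5 low IMF pigs lay between 98.9 and 107.0 CPM. The log2FC was 0.05 ± 0.11 (SE), with a 95% interval from -0.19 to 0.29 and an adjusted p = 0.910 (edgeR's quasi-likelihood test), and its sign changed with the pigs included.

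CTSD (ENSSSCG00000040793, chr2:1188548-1197642), the aspartic protease, had from 40.5 to 58.9 CPM (median 54.4) in the high and from 48.5 to 87.7 CPM (median 60.5) in the low IMF group. The highest value after TMM normalization was again that of pig 7. The log2FC was 0.25 ± 0.15 (SE; 95% interval -0.06 to 0.57), with an adjusted p = 0.567 (edgeR's quasi-likelihood test). With each pig left out in turn it stayed between 0.14, without pig 7, and 0.32, and without the 6 pigs of mismatched Y chromosome counts it was 0.0017.

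CTSH (ENSSSCG00000001770, chr7:48084882-48106072) varied more among high IMF pigs, from 9.04 to 20.1 CPM (median 13.2), than among low IMF pigs, from 13.3 to 18.1 CPM (median 15.5). Its lowest and highest values belonged to high IMF pigs 3 and 6, so that the high IMF group enclosed the low IMF group. The log2FC was 0.18 ± 0.17 (SE; 95% interval -0.19 to 0.55), with an adjusted p = 0.749 (edgeR's quasi-likelihood test). It was 0.08 without pig 3, 0.11 without pig 5, 0.32 without pig 6 and -0.0046 without the 6 pigs of mismatched Y chromosome counts.

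CTSL (ENSSSCG00000010948, chr10:27668523-27674705), a lysosomal endopeptidase, had 10.7, 3.11, 2.92, 6.14, 2.87 and 45.5 CPM in high IMF pigs 1 to 6. Low IMF pigs 7 to 12 had 3.13, 3.94, 3.12, 5.61, 3.05 and 1.79 CPM. Pig 6 stood far above all other pigs and pig 1 was next, whereas high IMF pigs 2, 3 and 5 lay within the low IMF range. The mean of the high IMF group, 11.9 ± 16.7 CPM (SD, n = 6), was therefore smaller than its own SD, beside 3.44 ± 1.27 CPM (SD, n = 6) in low IMF pigs.

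For CTSL the log2FC was -1.78 ± 0.66 (SE; 95% interval -3.20 to -0.37), the only one of the 8 past 0.58 in size. Its unadjusted p was 0.0173 and its adjusted p 0.427 (edgeR's quasi-likelihood test). The log2FC dropped to -0.58 without pig 6, with an unadjusted p of 0.142 in the same test, and it was -0.99 in limma-voom. An exact two-sided permutation test of log2 CPM, in which a single pig weighs less, gave p = 0.175. The difference of the group means thus rested mostly on pig 6. High IMF pigs 1 (10.7 CPM) and 4 (6.14 CPM) also lay above the highest low IMF pig (5.61 CPM). The difference did not pass a test over all genes with or without pig 6.

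Pig 6 was also the highest of 12 pigs in the summed macrophage markers (186.9 CPM, beside medians of 102.1 and 95.8 CPM in the high and low IMF groups) and in the summed blood markers HBB and ALAS2 (630.4 CPM, with a highest low IMF value of 121.6 CPM). It was the lowest in the summed muscle fibre markers (24853 CPM). All 9 macrophage markers were counted in every pig. Of them, 0 were called, beside 0.0% of all genes tested. In edgeR's test 1 (AIF1) had an unadjusted p at or under 0.05, beside 10.4% of all genes. The high IMF group was higher for AIF1, as in 5.04% of all genes. The median log2FC of the 9 was -0.25, beside -0.0083 over all genes. The log2FC of AIF1 was -0.46, and -0.30 without pig 6. The part of these cells in the CTSL value of pig 6 was not tested. CTSV, the near relative of CTSL, had 154.0 CPM in pig 6. This was the highest value of the high IMF group and lay below only low IMF pig 11 (158.1 CPM). The log2FC of CTSV was -0.01 ± 0.19 (SE) with an adjusted p = 0.993 (edgeR's quasi-likelihood test).

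**Figure D3:**
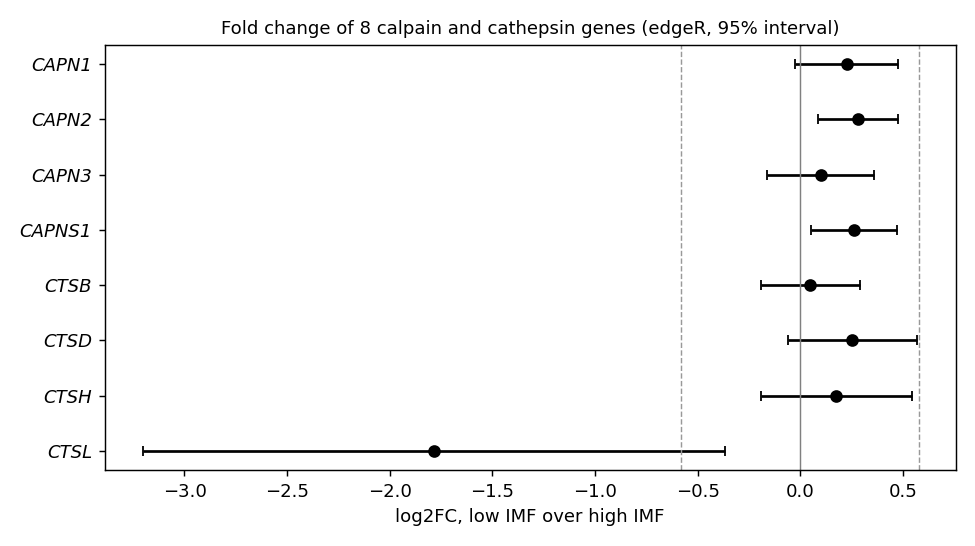
Log2FC of the 8 genes, low IMF over high IMF (horizontal axis; point: edgeR estimate from 6 against 6 pigs, bar: 95% interval), with dashed lines at -0.58 and 0.58. The intervals of CAPN2 (0.09 to 0.48) and CAPNS1 (0.05 to 0.47) lie above 0 and inside the dashed lines, and that of CTSL (-3.20 to -0.37) is the widest.

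With calpastatin not analysed, the balance of subunits and of cathepsins to cystatins was described with 9 ratios of CPM within each pig, chosen after the data were seen. Since CPM ratios of genes of different length carry the length of both, only differences between pigs can be read. The ratio of CAPN2 to CAPNS1, the 2 parts of m-calpain, was 2.10, 2.92, 2.23, 2.49, 2.22 and 2.54 in high IMF pigs 1 to 6 and 2.70, 2.49, 2.78, 2.28, 2.32 and 2.04 in low IMF pigs 7 to 12. Its log2 mean differed by 0.01 between groups (low minus high IMF; exact two-sided permutation test, p = 0.890, adjusted p = 0.903 over the 9 ratios). For each subunit all 6 low IMF pigs lay above the median of the high IMF group, while their ratio differed by less than the spread between pigs.

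The ratio of CAPN1 to CAPN2, µ- over m-calpain, ranged from 0.849 to 1.38 in the high and from 0.891 to 1.22 in the low IMF group, with a log2 difference of -0.06 (exact permutation p = 0.643, adjusted 0.903). That of CAPN1 to CAPNS1 was 4.02 in pig 2 and between 2.07 and 3.03 in the other 11 pigs, and its log2 difference was -0.04 (exact permutation p = 0.820, adjusted 0.903). Pig 2 combined the highest CAPN1 of its group with the lowest CAPNS1 of all pigs.

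Against CSTB, the cytosolic cystatin B, and CST3, the secreted cystatin C, CTSB showed log2 differences of -0.02 and 0.02 (exact permutation p = 0.868 and 0.903). CTSH showed 0.15 and 0.19 (exact permutation p = 0.331 and 0.119, adjusted 0.745 and 0.357). CTSL showed -1.07 and -1.04 (exact permutation p = 0.104 and 0.108, both adjusted to 0.357). The CTSL ratio to CSTB was 8.26 in pig 6 and at most 1.73 elsewhere, and without single pigs its log2 difference lay between -1.33 and -0.53, the latter without pig 6. Without the 6 pigs of mismatched Y chromosome counts, the log2 differences were -0.15 for CAPN1/CAPN2, -0.34 for CAPN1/CAPNS1 and -0.20 for CAPN2/CAPNS1. Those to CSTB were then -0.10 for CTSB, -0.0018 for CTSH and -2.08 for CTSL, and those to CST3 0.20, 0.30 and -1.78 in the same order. None of the 9 ratios passed, and the smallest p that 6 against 6 pigs allow is 0.00216.

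**Figure D4:**
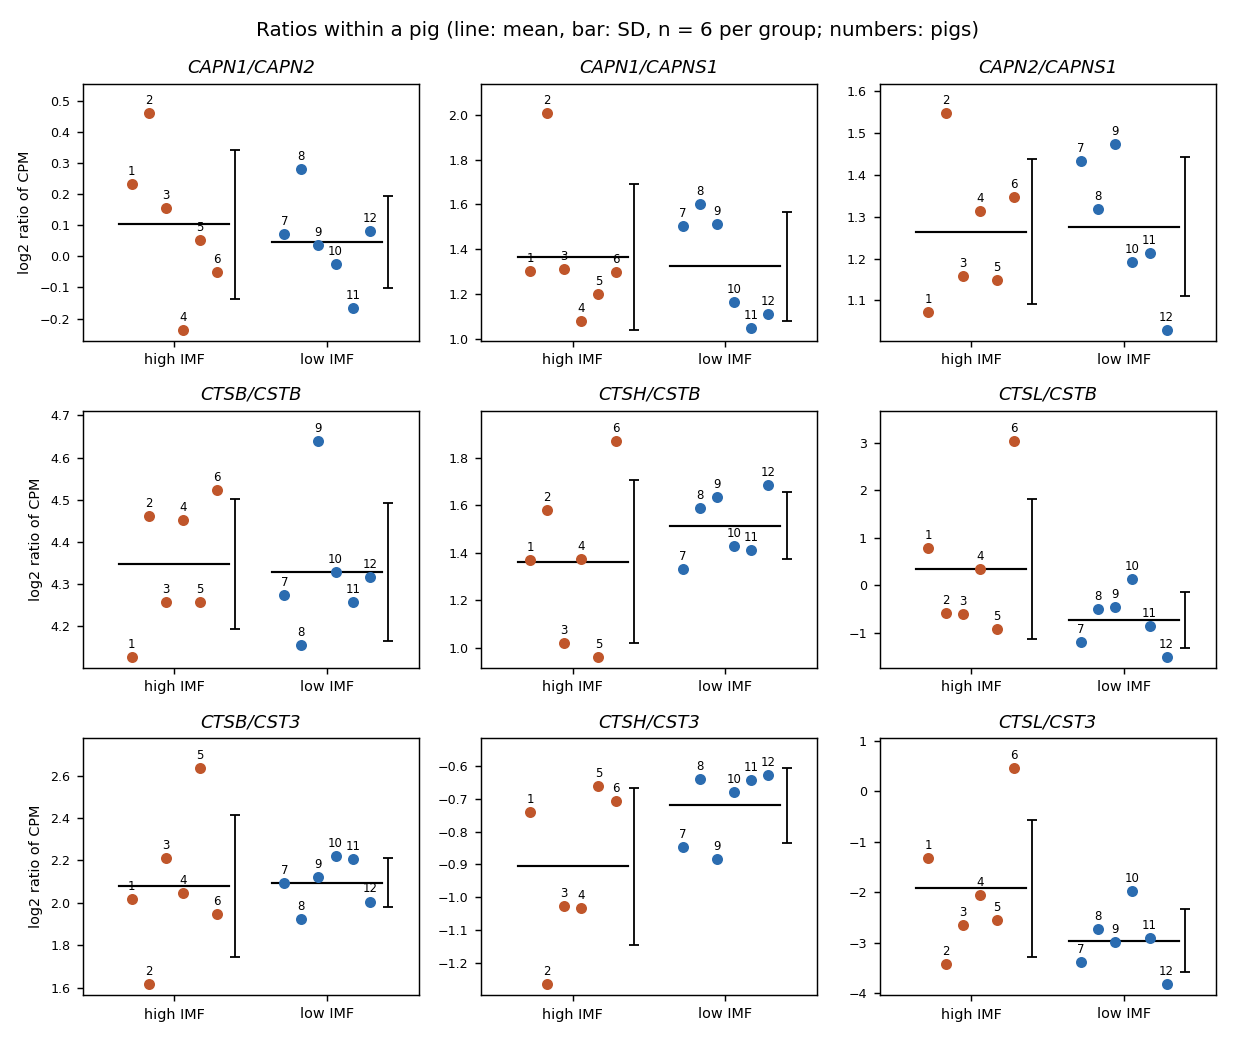
Log2 ratio of CPM within each pig (vertical axes, 1 scale per panel) for the 9 ratios, in high IMF pigs (orange, pigs 1 to 6) and low IMF pigs (blue, pigs 7 to 12), with the group mean (line) and SD (bar, n = 6). The groups overlap in all 9 panels, and pig 6 stands apart in both ratios of CTSL.

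Over the 12 pigs, 28 pairs of the 8 genes were compared in log2 CPM by permutation tests, and 0 pairs passed after adjustment. CAPN1 and CTSD had Pearson's r = 0.69 (permutation p = 0.00891, adjusted 0.120) and Spearman's rho = 0.67 (permutation p = 0.0201, adjusted 0.260). Without the 2 pigs farthest from the median of CAPN1, r was 0.68, and it was 0.58 within the high and 0.62 within the low IMF group. CTSB and CTSH had r = 0.72 (permutation p = 0.00915, adjusted 0.120) but rho = 0.39 (permutation p = 0.210, adjusted 0.554), and r fell to 0.49 without the 2 pigs farthest in CTSB. CAPN2 and CAPNS1 had r = 0.66 (permutation p = 0.0184, adjusted 0.120) and rho = 0.66 (permutation p = 0.0218, adjusted 0.260), and r was 0.58 without the 2 pigs farthest in CAPN2. Within groups their r was 0.39 in high and 0.17 in low IMF pigs, both below the pooled value. CAPN3 had a pooled r between -0.13 and 0.27 with the other calpain subunits. Within the high and low IMF groups its r was -0.51 and -0.27 with CAPN2, -0.39 and -0.55 with CAPNS1, and 0.39 and 0.06 with CAPN1, as a description over 6 pigs each.

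The genes whose pattern over the 12 pigs was most like that of CAPN1, among 9621 genes with a symbol and a mean of at least 1 CPM, were HOXC10 (r = 0.96), NDST1 (r = 0.96) and MAP1S (r = 0.95), given as a description. Their log2FC values were 0.28 ± 0.14, 0.42 ± 0.16 and 0.27 ± 0.19 (SE), and the adjusted p-values from edgeR's quasi-likelihood test were 0.507, 0.439 and 0.638.

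In the lists of related genes, 0 genes were called. Their counts can be read beside those over all genes tested, of which 48.4% had a positive log2FC and 10.4% an unadjusted p at or under 0.05, 5.38% with the low and 5.04% with the high IMF group higher. Of the 9 calpain substrates tested, 7 had a positive log2FC (median 0.23, beside -0.0083 over all genes), and 3 had an unadjusted p at or under 0.05, all with the low IMF group higher (5.38% of all genes). These were FLNC (filamin C; log2FC 0.50 ± 0.18), SPTBN1 (β-spectrin; 0.47 ± 0.16) and TLN1 (talin; 0.33 ± 0.13; SE), and the adjusted p-values from edgeR's quasi-likelihood test were 0.427, 0.422 and 0.441. Desmin, DES, had a log2FC of 0.23 ± 0.15 (SE; adjusted p = 0.620 in edgeR's test). FLNC, with the largest change of the list, had from 1844 to 3751 CPM in the high and from 3021 to 5131 CPM in the low IMF group. These ranges overlapped, and 0.659% of all genes tested had groups that did not overlap.

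Of 9 other cathepsins and legumain, 6 had a negative log2FC (median -0.13), and 2 had an unadjusted p at or under 0.05, both with the high IMF group higher (5.04% of all genes). These were CTSO (log2FC -0.46 ± 0.16) and CTSS (-0.42 ± 0.17; SE), and the adjusted p-values from edgeR's quasi-likelihood test were 0.427 and 0.441. CTSS, cathepsin S, is known for its role in antigen presenting cells, and its highest value, 23.8 CPM, was again that of pig 6, without which its log2FC was -0.27. Of 12 lysosomal sorting and membrane genes, 10 were positive (median 0.09), beside 48.4% of all genes. Their 2 members at an unadjusted p at or under 0.05, with the low IMF group higher as in 5.38% of all genes, were TFE3, a transcription factor of lysosomal genes (log2FC 0.31 ± 0.10), and IGF2R, a mannose 6-phosphate receptor that carries cathepsins to the lysosome (0.46 ± 0.21; SE), and the adjusted p-values from edgeR's quasi-likelihood test were 0.420 and 0.470. The 5 other calpains tested (median log2FC 0.10) and the 3 cystatins (median 0.07) held 0 such genes.

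The marker lists of other cell types were read in the same way. Of all genes tested, 10.4% had an unadjusted p at or under 0.05 in edgeR's test. These were 5.38% with the low and 5.04% with the high IMF group higher. Of the 6 adipocyte markers, 0 had a p at or under 0.05 before adjustment. Their sum ranged from 46.4 to 121.7 CPM in the high and from 22.6 to 137.5 CPM in the low IMF pigs. Of the 6 fibroblast markers 1 had such a p, PDGFRA (log2FC -0.42 ± 0.17, SE; adjusted p = 0.441 from edgeR). PDGFRA was highest in pig 6, at 41.9 CPM, and its log2FC was -0.22 without this pig. Of the 3 endothelial markers 1 had such a p, CDH5 (log2FC 0.55 ± 0.16, SE; adjusted p = 0.384 from edgeR). The lists of muscle fibre, blood and liver markers held 0. The summed endothelial markers ranged from 78.9 to 102.7 CPM in the high and from 80.7 to 132.9 CPM in the low IMF pigs. Of this list KDR had a negative log2FC (-0.10 ± 0.18, SE). Median sums were higher in the low IMF group for endothelial (116.7 beside 98.4 CPM) and muscle fibre markers (32491 beside 27744 CPM). The same held for fibroblast, blood and liver markers, and the reverse for adipocyte and macrophage markers. Single genes went partly the other way. Both blood markers had a negative log2FC (HBB -0.83, ALAS2 -0.64). The log2FC was positive for 4 of 6 adipocyte, 3 of 6 fibroblast, 3 of 3 liver and 2 of 9 macrophage markers, beside 48.4% of all genes. CAPN2 and CAPNS1 were also higher in the low IMF group, and the part of any cell type in their values was not tested.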

How the data were processed

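Stranded libraries of polyadenylated SM muscle RNA were sequenced as read pairs. The authors trimmed the reads (Trimmomatic), aligned them to Sscrofa11.1 (HISAT2), used StringTie and HTSeq, and deposited counts per Ensembl gene and pig. The annotation release, the strand option and how a count relates to a read pair are not given in the sources used here. Lanes held library pairs, and which pigs shared one is not given there either. Symbols matched 14857 of 25880 identifiers, and positions are those of RefSeq genes of the same symbol.

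Counts were filtered with filterByExpr, normalized by TMM and compared in edgeR 4.0.16 (R 4.3.3) by its quasi-likelihood test, the model holding only the group (degrees of freedom: 10 residual, 3.54 prior in the median; common biological coefficient of variation 0.332). P-values were Benjamini-Hochberg adjusted over 14262 genes. Log2 CPM used a prior count of 2, ratios none. Alternatives used DESeq2 1.42.0, limma-voom (limma 3.58.1), other normalizations and filters, labelled sex or age, Y chromosome counts as a covariate (added after seeing the data), and pigs left out. Exact permutation tests were two-sided, and those of correlations used 100000 resamples (scipy 1.17.1). Intervals of 95% are from the edgeR fit. The planned ratios to CAST and 45 correlations became 9 other ratios and 28 correlations, as 2 genes were not analysed here. The tests were tried on simulated counts. The genes named were the 8 measured, list genes whose unadjusted p did not exceed 0.05, and the 3 most like CAPN1; CTSV, CTSF, DES and others named for level were chosen after their values were seen. The members and lists were chosen with earlier results of these data known.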

Additional observations from a re-analysis of the deposited data

Results flagged for a closer look

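A pig was marked where its distance to the nearest other pig of its group exceeded Dixon's 95% critical value of 0.625 for 6 pigs. Of 34 groups of 6 values (8 genes and 9 ratios in both groups), 6 were marked. Chance alone marks about 1 in 20 where values are normally distributed and groups are independent. CPM and ratios were taken here on a linear scale, and the groups share genes, so this rate is only a rough guide. CTSL was 45.5 CPM in high IMF pig 6, next to 10.7 CPM in pig 1, a gap of 0.817 of the group's range. The same pig was marked in the ratios CTSL/CSTB (8.26, next 1.73) and CTSL/CST3 (1.38, next 0.400), which share the CTSL value. CTSB was 139.0 CPM in low IMF pig 7, next to 107.0 CPM, and this pig was also the highest of 12 in CAPN1, CAPN2 and CTSD without being marked there. These first places depended on TMM normalization. Per total count, CTSB was higher in pig 6 (15964 of 131048805) than in pig 7 (15081 of 133915596). So were CAPN1 (10704, beside 8158 in pig 7) and CTSD (9834, beside 9512) in pig 8 (of 137937371). CAPN2 was higher in pig 9 (10132 of 141099168, beside 7766). The paper lists the lowest share of uniquely mapped reads for pig 7. The CAPN1/CAPNS1 ratio was 4.02 in high IMF pig 2, next to 2.49. The CTSB/CSTB ratio was 24.9 in low IMF pig 9, next to 20.1.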

How the results depend on the processing

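The count of the 8 genes called was 0 under every alternative run, each pig left out included. Over all genes tested, edgeR called 0, DESeq2's Wald test 58, and between 0 and 1 genes were called with 1 pig left out; the cause was not tested. CAPN2, CAPN3, CAPNS1, CTSD and CTSL kept their direction under all alternatives run. Without the 6 pigs whose Y chromosome counts did not match their labels, the log2FC reversed for CAPN1 (-0.0528), CTSB (-0.0910) and CTSH (-0.0046), and so did the log2 difference of the ratios CAPN2/CAPNS1 (-0.20) and CTSH/CSTB (-0.0018), from 4 against 2 pigs; the cause was not tested. With 1 pig left out, 6 values took both signs: the log2FC of CTSB (-0.0270 to 0.11) and the log2 differences of CAPN1/CAPN2 (-0.12 to 0.0154), CAPN1/CAPNS1 (-0.10 to 0.0843), CAPN2/CAPNS1 (-0.0272 to 0.0689), CTSB/CSTB (-0.0801 to 0.0176) and CTSB/CST3 (-0.0756 to 0.13). CTSL moved by over 1.5 times without pig 6 (-0.58), without the mismatched pigs (-2.75) and in limma-voom (-0.99). With 1 pig left out, CAPN3 ranged from 0.02 to 0.16, CTSD from 0.14 to 0.32 and CTSH from 0.08 to 0.32. Without the mismatched pigs CAPN2 (0.10), CAPN3 (0.06), CTSD (0.0017), FLNC (0.25), TFE3 (0.14), IGF2R (0.12) and DES (0.05) also moved by over 1.5 times. With Y chromosome counts as a covariate, chosen after seeing the data, CAPN1 had a log2FC of 0.23 and an unadjusted p of 0.0440, with an adjusted p of 0.404 in edgeR's test. No paired analysis was possible, since the pigs were unrelated and the 2 groups were not matched pig by pig. The planned ratios to CAST, and the alternatives to them, were not run, since CAST was not analysed here. If counts stand for single read pairs, those of 306 or more per pig leave counting error small beside the spread between pigs. That spread then sets the precision.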

Other observations

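The genes whose pattern over 12 pigs was most like that of CTSL, looked at after its values were seen, were RGS10 (r = 0.98), TFPI2 (r = 0.97), LARP6 (r = 0.95), VMP1 (r = 0.95) and TNFAIP6 (r = 0.94), among 9621 genes compared and as a description. Pig 6 was the highest pig in each: RGS10, a regulator of G-protein signalling, had 5.03 CPM there and at most 2.50 CPM elsewhere, and TNFAIP6, an inflammation-induced hyaluronan-binding protein, 21.9 CPM and at most 7.37 CPM. VMP1, a protein of autophagosome formation, had 69.1 CPM in pig 6 and at most 34.2 CPM elsewhere. Without pig 6, the first of these were again RGS10 (r = 0.94 over 11 pigs) and TFPI2 (r = 0.91), followed by ADORA3, HES1 and SDE2. CTSF, a papain-like cathepsin, ranged from 61.9 CPM in pig 6 to 291.8 CPM in pig 2, and its log2FC was -0.30 ± 0.38 (SE; adjusted p = 0.817 in edgeR's quasi-likelihood test).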
